A study of Homo sapiens with 21 samples.

Results

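The serine/arginine-rich (SR) splicing factor family is described here by 10 genes, SRSF1, SRSF2, SRSF3, SRSF4, SRSF5, SRSF6, SRSF7, SRSF9, SRSF10 and SRSF11. They were chosen by symbol among the 60671 genes of the count table, not by a cut on a measured value. Earlier results of these data were known when they were chosen. RNA had been sequenced from 21 libraries in 7 groups of 3 replicates. OCI-AML3, a line derived from an acute myeloid leukaemia, was sampled untreated at 0 h, after DMSO or tunicamycin for 4 h, and after DMSO or tunicamycin for 24 h. HEK293T, a line of embryonic kidney origin, was sampled after DMSO or tunicamycin for 24 h. Tunicamycin was given at 1 μg/mL in both lines and DMSO, its solvent, served as the control. Each line is 1 cell line grown in its own medium, OCI-AML3 in RPMI and HEK293T in DMEM, so that a difference between the lines cannot be told apart from a difference between their culture conditions. The labels do not say whether replicates were separate cultures, and p-values therefore measure the spread among these libraries, which may be technical in part.

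SR proteins bind exonic enhancer sequences of pre-mRNA through RNA recognition motifs and recruit the spliceosome through a tail rich in arginine-serine dipeptides. Kinases of the SRPK and CLK families phosphorylate this tail, which directs the proteins into the nucleus, into nuclear speckles and out of them to sites of splicing, and several members also shuttle to the cytoplasm with exported mRNA. Most SR genes limit their own level by splicing their RNA into forms that nonsense-mediated decay (NMD) removes. Tunicamycin stops the attachment of N-linked sugars to proteins of the endoplasmic reticulum (ER) and thereby causes ER stress and the unfolded protein response (UPR). The study asked how this response reshapes splicing, and the comparisons of the SR family ask which of its genes changed in RNA level, when, and in which line.

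The 10 genes lie on 7 chromosomes of GRCh38 and all are annotated as protein coding in GENCODE release 44. They are SRSF1 (ENSG00000136450, chr17:58000919-58007346, minus strand), SRSF2 (ENSG00000161547, chr17:76734115-76737333, minus strand), SRSF3 (ENSG00000112081, chr6:36594353-36605600, plus strand), SRSF4 (ENSG00000116350, chr1:29147743-29181900, minus strand), SRSF5 (ENSG00000100650, chr14:69726900-69772005, plus strand), SRSF6 (ENSG00000124193, chr20:43457893-43466046, plus strand), SRSF7 (ENSG00000115875, chr2:38743599-38751494, minus strand), SRSF9 (ENSG00000111786, chr12:120461672-120495946, minus strand), SRSF10 (ENSG00000188529, chr1:23964347-23980927, minus strand) and SRSF11 (ENSG00000116754, chr1:70205682-70253052, plus strand). Promoter windows of RefSeq on GRCh38.p14, from 250 bases before to 50 bases after the gene start, were matched by symbol for 9 members, all but SRSF2. The 120 bases directly upstream of the outermost annotated start are shown for SRSF1, which fell with tunicamycin at 4 h, for SRSF3, which fell at 24 h, and for SRSF6, which rose at 24 h. The SRSF1 stretch is chr17:58007347-58007466 (minus strand), the SRSF3 stretch chr6:36594233-36594352 (plus strand) and the SRSF6 stretch chr20:43457773-43457892 (plus strand). Each is written 5′ to 3′ on the strand of its gene, with CCAAT and GGGCGG, the letters of the CCAAT box and the GC box, in capitals on either strand (as ATTGG and CCGCCC where they are on the other).
SRSF1: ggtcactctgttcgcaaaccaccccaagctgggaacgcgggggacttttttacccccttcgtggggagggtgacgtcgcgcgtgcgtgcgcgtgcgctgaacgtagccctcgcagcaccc
SRSF3: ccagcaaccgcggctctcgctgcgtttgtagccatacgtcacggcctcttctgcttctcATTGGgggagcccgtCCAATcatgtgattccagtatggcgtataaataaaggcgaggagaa
SRSF6: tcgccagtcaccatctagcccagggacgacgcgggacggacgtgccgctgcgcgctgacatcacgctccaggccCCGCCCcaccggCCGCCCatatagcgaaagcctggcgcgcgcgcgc
The SRSF1 stretch lies within a gene model of the opposite strand, ENSG00000279069. Over the whole windows and on both strands, CCAAT was present in SRSF3 alone among the 9 members, against 36.8% of the windows of 10302 tested genes, and GGGCGG in SRSF4, SRSF6, SRSF7 and SRSF11, against 70.8%. In SRSF3 the CCAAT letters lay 70 bases upstream of the RefSeq start on the opposite strand and 55 bases upstream on its own. Letters of elements linked to ER stress or to ATF factors, searched as whole strings, were in none of the 9 windows. These were TGACGTG (2.58% of all windows), TGACGTCA (3.36%), the C/EBP-ATF element TGATGNAA (1.69%) and the ER stress element, CCAAT and CCACG with 9 bases between them (0.136%). Shorter parts of these strings were not counted over the windows. TGACGT, which begins TGACGTG and TGACGTCA, is in the SRSF1 stretch shown and, on the other strand, in the SRSF3 stretch. The motif CACGTG was also in 0 of the 9, against 10.3% of all windows. The GC content of the 9 windows was 53.7 to 74.7%, with a median of 62.7%, and that of all windows had a median of 65.3%. A match describes letters in a window, not a bound site.

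The libraries held 13838480 to 19961819 counts. Levels are given as CPM, counts relative to the library total after TMM scaling, which aligns the bulk of genes between libraries. The test covered 14012 genes that reached 1 CPM in 8 or more libraries, and all 10 members were among them. Calls use edgeR's quasi-likelihood test with p-values adjusted over all genes tested (Benjamini-Hochberg), at a limit of 0.05. All 8 genes of a UPR check list rose with tunicamycin in each of the 3 comparisons, with HSPA5, the ER chaperone BiP, at 6869 ± 164 CPM against 704 ± 26.2 CPM at 4 h (mean ± SD, n = 3). Summed myeloid markers stood at 1201 to 1846 CPM in OCI-AML3 and at 10.5 to 14.3 CPM in HEK293T. Of these markers MPO, the granule enzyme myeloperoxidase, was at 0.980 to 1.66 CPM in OCI-AML3, and the others were at 54.0 CPM or more there. Summed markers chosen for HEK293T stood at 3.16 to 5.27 CPM in OCI-AML3 and at 119.8 to 147 CPM in HEK293T, where EPCAM and PAX2 did not exceed 1.51 CPM.

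In untreated OCI-AML3 cells the 10 genes together held 3506 ± 115 CPM (mean ± SD, n = 3). SRSF3, the smallest SR protein, took 18.3% of this sum, SRSF1 16.8% and SRSF2 16.5%, and the smallest share was 4.60%, of SRSF4. Between genes, levels are comparable per length of transcript. Per kb of the canonical transcript, SRSF9 stood first with 346 ± 19.6 CPM per kb (mean ± SD, n = 3) and SRSF2, known as SC35 and a marker of nuclear speckles, next with 306 ± 7.80. SRSF3 (152 ± 3.89) and SRSF7 (137 ± 3.94) followed, and SRSF5 (136 ± 15.5) could not be ordered against SRSF7. SRSF10, which represses splicing when it is dephosphorylated, was last with 25.9 ± 3.79 CPM per kb. This order depends on the length taken. With the length of all annotated exons SRSF2 stood first (194 CPM per kb) and SRSF10 again last (16.7). SRSF1 (102) and SRSF9 (101) came next and could not be ordered against each other.

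**Figure D1:**
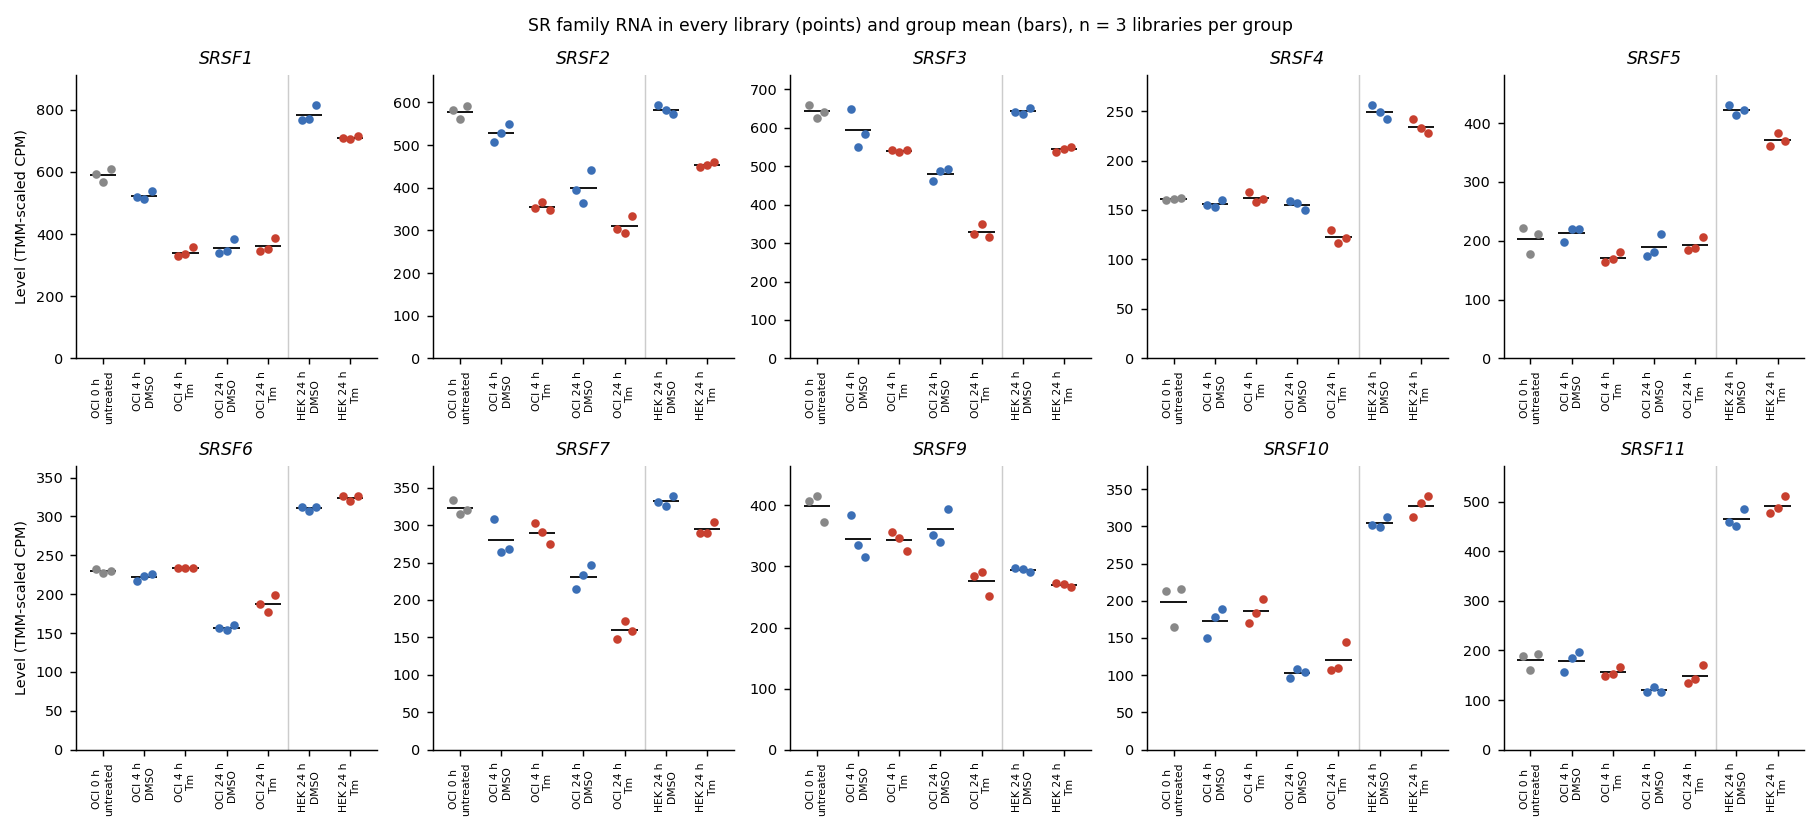
Level of each of the 10 SR family genes (TMM-scaled CPM, vertical axis from 0) in every library (points) with the group mean (bars), for the 7 groups on the horizontal axis (Tm, tunicamycin; 3 libraries per group; the grey line separates OCI-AML3 from HEK293T). SRSF1 and SRSF2 drop within 4 h of tunicamycin, SRSF3 and SRSF7 are lowest at 24 h of tunicamycin, and SRSF6, SRSF10 and SRSF11 are lowest at 24 h of DMSO.

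After 4 h of tunicamycin in OCI-AML3 cells, 3 of the 10 members fell and 0 rose. They were SRSF1, SRSF2 and SRSF5. Of all genes tested 37.5% were called in this comparison, 18.9% lower and 18.5% higher. The median log2 fold change of the members was -0.07, against -0.02 over all genes tested. None of the members passed a log2 fold change of 1 in either direction, which 4.92% of genes did. RNA was measured in bulk, so fewer cells with an RNA and less of it per cell cannot be told apart.

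SRSF1, the prototype of the family and a regulator of splicing, export and NMD, changed most at 4 h. Its libraries stood at 520.1, 512 and 539 CPM after DMSO and at 329, 335 and 359 CPM after tunicamycin. The groups were far apart, with the highest tunicamycin library at 359 CPM and the lowest DMSO library at 512 CPM. The level was 1.54-fold lower, a log2 fold change of -0.62 ± 0.06 (SE, adjusted p = 4.6e-08). SRSF2, which is recurrently mutated in myeloid malignancies, stood at 508, 529 and 550.1 CPM after DMSO and at 354, 366 and 349 CPM after tunicamycin. Its groups did not overlap either, and the level was 1.49-fold lower, a log2 fold change of -0.57 ± 0.07 (SE, adjusted p = 3.2e-07). SRSF5, an enhancer-dependent splicing activator, stood at 198, 219 and 220.1 CPM after DMSO and at 163, 169.5 and 181 CPM after tunicamycin. The fall was smaller, 1.24-fold, with a log2 fold change of -0.31 ± 0.08 (SE, adjusted p = 0.0039).

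The other 7 members did not pass the test at 4 h. SRSF3 was lower in each of the 3 tunicamycin libraries, at 542, 538 and 542 CPM against 649.9, 551 and 583 CPM, with a log2 fold change of -0.14 (adjusted p = 0.079). SRSF6 was higher in each, at 234, 234 and 234 CPM against 218, 223 and 226 CPM, with 0.07 (adjusted p = 0.27). For SRSF11 the log2 fold change was -0.20 (adjusted p = 0.091) and its groups overlapped. The remaining values were 0.06 for SRSF4, 0.05 for SRSF7, -0.01 for SRSF9 and 0.11 for SRSF10, also with overlapping groups. In all, 5 members had groups that did not overlap, 4 lower and 1 higher, against 46.3% of all genes. Whether SRSF11 and SRSF3 passed depended on single libraries and on the method. Without the DMSO library of replicate 1 SRSF11 passed (adjusted p = 0.018), and without that of replicate 2 SRSF3 did (adjusted p = 0.024). With all libraries SRSF3 passed with DESeq2 (adjusted p = 0.033) and without TMM (adjusted p = 0.02), and SRSF11 with a filter of 1 count in total (adjusted p = 0.036). Over all alternatives the adjusted p of SRSF3 reached 0.5 and that of SRSF11 0.36.

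After 24 h of tunicamycin in OCI-AML3 cells, 5 members were lower and 2 were higher than in DMSO. SRSF2, SRSF3, SRSF4, SRSF7 and SRSF9 fell, and SRSF6 and SRSF11 rose. Of all genes tested 51.1% were called, 27.7% lower and 23.5% higher. The median log2 fold change of the members was -0.16, against -0.01 over all genes, and the median size of the change was 0.33, against 0.32. No member passed a log2 fold change of 1, which 6.32% of genes did. The libraries of the 7 called members did not overlap between the groups, as held for 52.8% of all genes.

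SRSF3 and SRSF7, close relatives that act as adaptors of mRNA export, fell most at 24 h. SRSF3 stood at 462, 487 and 493 CPM after DMSO and at 324, 350.1 and 316 CPM after tunicamycin. It was 1.46-fold lower, a log2 fold change of -0.54 ± 0.06 (SE, adjusted p = 1.8e-07). SRSF7 stood at 215, 233 and 247 CPM after DMSO and at 148, 173 and 159 CPM after tunicamycin, 1.45-fold lower, with a log2 fold change of -0.54 ± 0.07 (SE, adjusted p = 1.7e-06). In both genes every tunicamycin library lay below every DMSO library. SRSF9, which has a short arginine-serine tail, stood at 352, 339 and 394 CPM after DMSO and at 285, 291 and 252 CPM after tunicamycin. Its log2 fold change was -0.39 ± 0.07 (SE, adjusted p = 0.00015).

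SRSF2 was lower at 24 h as it had been at 4 h. It stood at 394, 364 and 441 CPM after DMSO and at 303, 293 and 335 CPM after tunicamycin, with a log2 fold change of -0.37 ± 0.07 (SE, adjusted p = 8.3e-05). SRSF4, the largest protein of the family, stood at 159, 157 and 150.5 CPM after DMSO and at 129, 117 and 122 CPM after tunicamycin. It was 1.27-fold lower, with a log2 fold change of -0.34 ± 0.05 (SE, adjusted p = 1.7e-05).

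SRSF6 and SRSF11 were higher after 24 h of tunicamycin than after 24 h of DMSO. SRSF6, a regulator of alternative exons in many tissues, stood at 187, 178 and 198 CPM against 157, 154 and 161 CPM in DMSO, with a log2 fold change of 0.26 ± 0.05 (SE, adjusted p = 0.00022). SRSF11 stood at 134, 142 and 169.8 CPM against 117, 126 and 116 CPM, with a log2 fold change of 0.32 ± 0.09 (SE, adjusted p = 0.0059). Both means lay below those of 4 h in either treatment, though the SRSF11 libraries overlapped with those of 4 h in both treatments. SRSF10 stood at 107, 109.9 and 144 CPM against 96.9, 108 and 104 CPM and the log2 fold change was 0.23 ± 0.11 (SE, adjusted p = 0.094), short of the threshold. With 1 library left out its log2 fold change ran from 0.11 without tunicamycin replicate 3 (adjusted p = 0.39) to 0.36 without tunicamycin replicate 1 (adjusted p = 0.016). It passed in 7 of the 21 such fits and in 3 of 8 other alternatives, where adjusted p ran from 0.042 to 0.12. SRSF1, at 344, 351 and 388 CPM against 341, 344 and 383 CPM, showed a log2 change of 0.02 ± 0.06 (SE, adjusted p = 0.8). The 24 h value of SRSF5 was 0.03 ± 0.08 (SE, adjusted p = 0.79).

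The level of the family also changed with time in DMSO alone. Between 4 h and 24 h of DMSO in OCI-AML3 cells 7 members fell and 0 rose, where 42.6% of all genes were called, 21.6% lower and 21% higher. No member passed a log2 fold change of 1, which 4.15% of genes did. The median log2 fold change of the members was -0.36, against -0.02 over all genes. The 7 were SRSF1, SRSF2, SRSF3, SRSF6, SRSF7, SRSF10 and SRSF11, and the libraries of each did not overlap between the times, which held for 45.5% of all genes. This comparison shares its DMSO 4 h libraries with the tunicamycin comparison at 4 h and its DMSO 24 h libraries with that at 24 h. Scaling by library size without TMM moved the median of all genes by -0.12 here.

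SRSF10 changed most with time in DMSO. It stood at 149.6, 178 and 189 CPM at 4 h and at 96.9, 108 and 104 CPM at 24 h, 1.68-fold lower, with a log2 fold change of -0.74 ± 0.11 (SE, adjusted p = 1.5e-05). SRSF11 stood at 156, 184 and 197 CPM at 4 h and at 117, 126 and 116 CPM at 24 h, with a log2 fold change of -0.58 ± 0.09 (SE, adjusted p = 2.4e-05). For SRSF1 the levels were 520.1, 512 and 539 CPM at 4 h and 341, 344 and 383 CPM at 24 h, and the log2 fold change was -0.56 ± 0.06 (SE, adjusted p = 3.6e-07). The DMSO libraries of SRSF1 at 24 h overlapped in range with its tunicamycin libraries at 4 h, 329, 335 and 359 CPM. SRSF6 went from 218, 223 and 226 CPM to 157, 154 and 161 CPM, with a log2 fold change of -0.50 ± 0.05 (SE, adjusted p = 8.4e-08). Smaller falls were those of SRSF2 at -0.41 (adjusted p = 3.8e-05), SRSF3 at -0.31 (adjusted p = 0.00032) and SRSF7 at -0.28 (adjusted p = 0.003). The values of SRSF4 (-0.01 (adjusted p = 0.95)), SRSF5 (-0.17 (adjusted p = 0.098)) and SRSF9 (0.07 (adjusted p = 0.48)) did not pass. With 1 library left out SRSF5 ran from -0.26 to -0.11 and passed in 2 of 21 fits. Among 8 other alternatives it passed in 1, without TMM, at -0.29 (adjusted p = 0.011).

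Set against untreated cells, 4 h of DMSO gave no call among the members and 0 calls among all 14012 genes in edgeR's test (0% of genes). Limma voom also called 0 genes and DESeq2 called 19. In edgeR 95 genes were called with a filter of 1 count in total and 26 without DMSO replicate 1 of 4 h. At an unadjusted p under 0.05 there were 1160 genes (8.28%) and 3 members, SRSF1, SRSF7 and SRSF9. The log2 fold changes of the members ran from -0.21 to 0.06. Their DMSO libraries at 4 h lay below all untreated libraries in 5 members, SRSF1, SRSF2, SRSF4, SRSF6 and SRSF7, and above them in 0, against 10.7% of all genes in either direction. For SRSF7 the untreated libraries stood at 334, 316 and 321 CPM and the DMSO libraries at 308, 264 and 268 CPM.

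**Figure D2:**
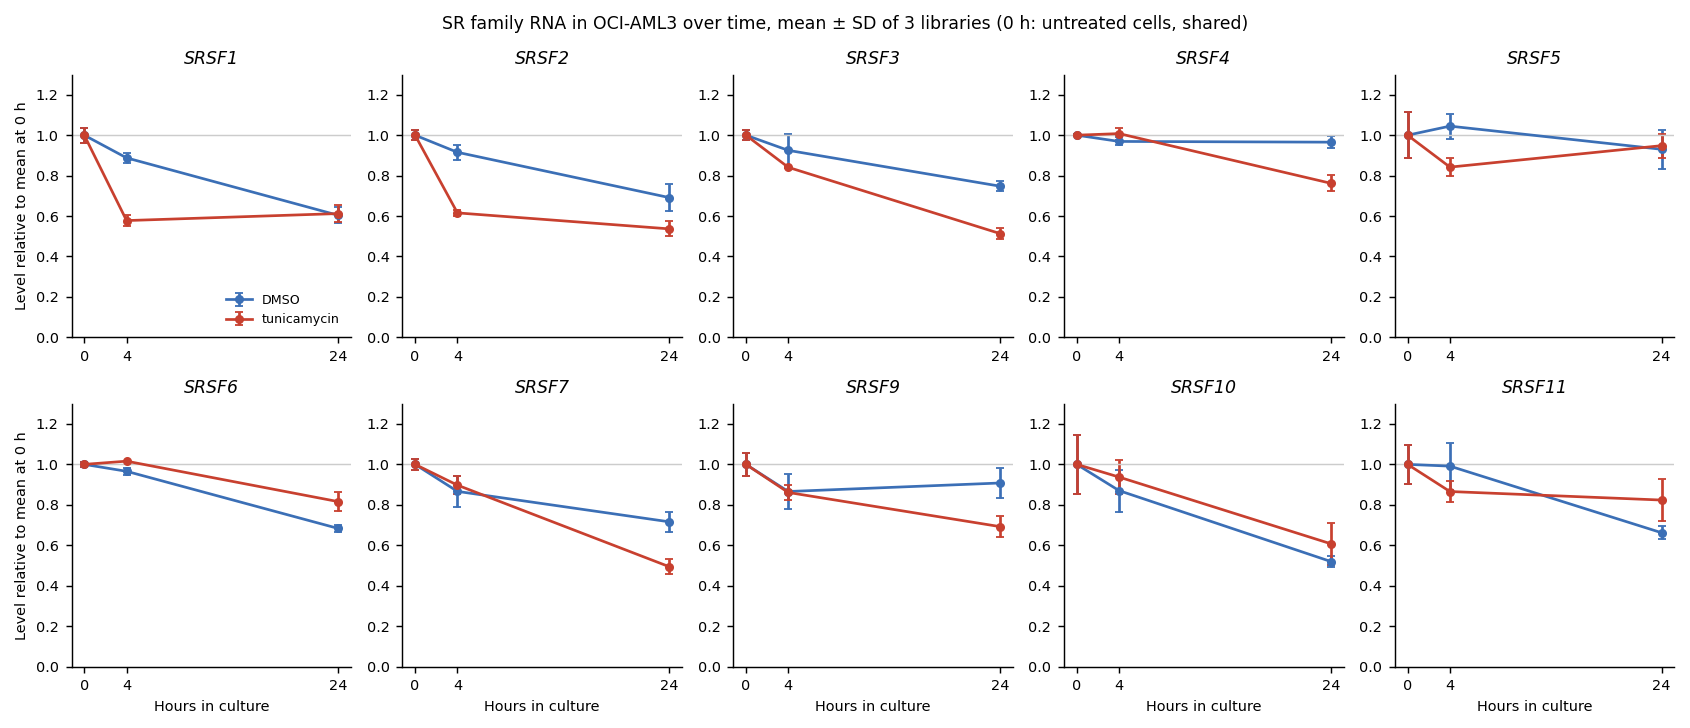
Level of each SR family gene in OCI-AML3 at 0, 4 and 24 h (horizontal axis, hours) relative to its mean in untreated cells (vertical axis), for DMSO (blue) and tunicamycin (red), as mean ± SD of 3 libraries; the untreated libraries at 0 h are shared by both lines. The DMSO and tunicamycin lines of SRSF1 part at 4 h and meet at 24 h, while those of SRSF3, SRSF4, SRSF7 and SRSF9 part between 4 h and 24 h.

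By the interaction term, which tests the 24 h effect minus the 4 h effect, the change with tunicamycin was not the same at both times in 8 members. The difference was above 0 in 4 members and below 0 in 4, against 35.3% of all genes called, 15.1% higher and 20.3% lower. SRSF1 had the largest difference, 0.64 ± 0.09 (SE, adjusted p = 1e-05), from -0.62 at 4 h to 0.02 at 24 h. From 4 h to 24 h its mean went from 524 to 356 CPM in DMSO and from 341 to 361 CPM with tunicamycin. The DMSO control thus moved more between the times than the tunicamycin group did. SRSF11 went from -0.20 to 0.32, a difference of 0.51 ± 0.13 (SE, adjusted p = 0.0035). In SRSF5 the difference was 0.34 ± 0.11 (SE, adjusted p = 0.024) and in SRSF6 0.18 ± 0.07 (SE, adjusted p = 0.048). These last values were close to the threshold. The SRSF5 call was lost without DMSO replicate 2 or 3 of 4 h or tunicamycin replicate 1 of 4 h (adjusted p = 0.054, 0.057 and 0.063), and the SRSF6 call was lost in 12 of 21 fits with 1 library left out (adjusted p up to 0.097) and in 3 of 8 other alternatives, at 0.33 with the filter of 1 count in total, 0.084 with the compared groups alone and 0.058 with a replicate block.

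In the other direction SRSF7 went from 0.05 at 4 h to -0.54 at 24 h, a difference of -0.59 ± 0.10 (SE, adjusted p = 9.6e-05). The difference was -0.41 ± 0.09 (SE, adjusted p = 0.00086) for SRSF3, -0.40 ± 0.08 (SE, adjusted p = 0.00031) for SRSF4 and -0.38 ± 0.11 (SE, adjusted p = 0.0069) for SRSF9. SRSF9 did not pass when the compared groups alone were fitted (adjusted p = 0.059). SRSF2, lower at both times, had a difference of 0.21 ± 0.09 (SE, adjusted p = 0.086), which did not pass. It ran from 0.18 to 0.32 with 1 library left out and passed in 7 of those 21 fits. Among 8 other alternatives it passed in 3, for example with DESeq2 (adjusted p = 0.019). The difference of SRSF10 was 0.12 ± 0.16 (SE, adjusted p = 0.58). In the test on all libraries the 7 members called lower at either time thus divided into SRSF1 and SRSF5, called lower at 4 h and not called at 24 h, SRSF3, SRSF4, SRSF7 and SRSF9, called lower at 24 h and not called at 4 h, and SRSF2, called lower at both. The interaction passed for each of the 6 genes called lower at 1 time alone.

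In HEK293T cells 2 of the 10 members, SRSF2 and SRSF3, fell with 24 h of tunicamycin and 0 rose, where 25.7% of all genes were called, 13.1% lower and 12.6% higher. SRSF2 stood at 594, 582 and 573 CPM after DMSO and at 448, 452 and 460.3 CPM after tunicamycin, with a log2 fold change of -0.36 ± 0.07 (SE, adjusted p = 0.00022). SRSF3 stood at 642, 636 and 651 CPM after DMSO and at 537, 546 and 551 CPM after tunicamycin, with a log2 fold change of -0.24 ± 0.06 (SE, adjusted p = 0.005). Both were also lower in OCI-AML3 at 24 h. No member passed a log2 fold change of 1, which 2.13% of genes did.

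Replicates of HEK293T lay close together, and 8 members had groups that did not overlap, 7 lower and 1 higher, against 49.1% of all genes. Besides SRSF2 and SRSF3, SRSF1 was lower at 709, 705 and 714 CPM against 768, 769 and 816 CPM, with a log2 fold change of -0.14 ± 0.06 (SE, adjusted p = 0.091). SRSF7 stood at 289, 289.5 and 304 CPM against 331, 326 and 339 CPM, with -0.17 ± 0.07 (SE, adjusted p = 0.07), and SRSF5 at 361, 384 and 370.3 CPM against 431, 413 and 422 CPM, with -0.18 ± 0.08 (SE, adjusted p = 0.097). None of the 3 reached the threshold in the main fit of all groups. With DESeq2 SRSF1 (adjusted p = 0.036) and SRSF7 (adjusted p = 0.044) passed. In edgeR SRSF7 also passed without TMM (adjusted p = 0.017) and without OCI-AML3 DMSO 4 h replicate 1 (adjusted p = 0.032). The spread that the test used came from all 7 groups, and with the HEK293T libraries fitted alone 8 members passed, 6 lower and 2 higher. The 2 higher were SRSF10 (adjusted p = 0.017) and SRSF11 (adjusted p = 0.042). In that fit 5783 of the 14012 genes were called.

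Between the lines, the effect of 24 h of tunicamycin differed in 4 members, where 26.8% of all genes were called, 15.9% higher and 10.9% lower. The effect in HEK293T minus that in OCI-AML3 was 0.36 ± 0.10 (SE, adjusted p = 0.0089) for SRSF7, 0.30 ± 0.09 (SE, adjusted p = 0.011) for SRSF3 and 0.25 ± 0.07 (SE, adjusted p = 0.015) for SRSF4, with the effect in HEK293T nearer to 0. It was -0.20 ± 0.07 (SE, adjusted p = 0.045) for SRSF6, which rose in OCI-AML3 and was at 0.06 (adjusted p = 0.4) in HEK293T. For SRSF2 the difference was 0.00 ± 0.09 (SE, adjusted p = 1), the nearest to 0 of the 10, and it reached -0.12 without OCI-AML3 DMSO 24 h replicate 3 (adjusted p = 0.33). Each of the 4 calls was lost without single libraries, and between 2 and 4 members passed with 1 library left out. Of 8 other alternatives, 4 lost the call of SRSF4, 2 that of SRSF6, 1 that of SRSF3 and 0 that of SRSF7. Without TMM SRSF4 was at 0.14 (adjusted p = 0.19). SRSF1 passed with DESeq2, at -0.20 (adjusted p = 0.042), and without TMM, at -0.28 (adjusted p = 0.036). The SRSF7 call was lost without OCI-AML3 DMSO 24 h replicate 3 (adjusted p = 0.061) and without OCI-AML3 tunicamycin 24 h replicate 1 (adjusted p = 0.055). The count was 2 without OCI-AML3 DMSO 24 h replicate 2, without OCI-AML3 tunicamycin 24 h replicate 3, and without any 1 of the 3 HEK293T DMSO libraries.

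**Figure D3:**
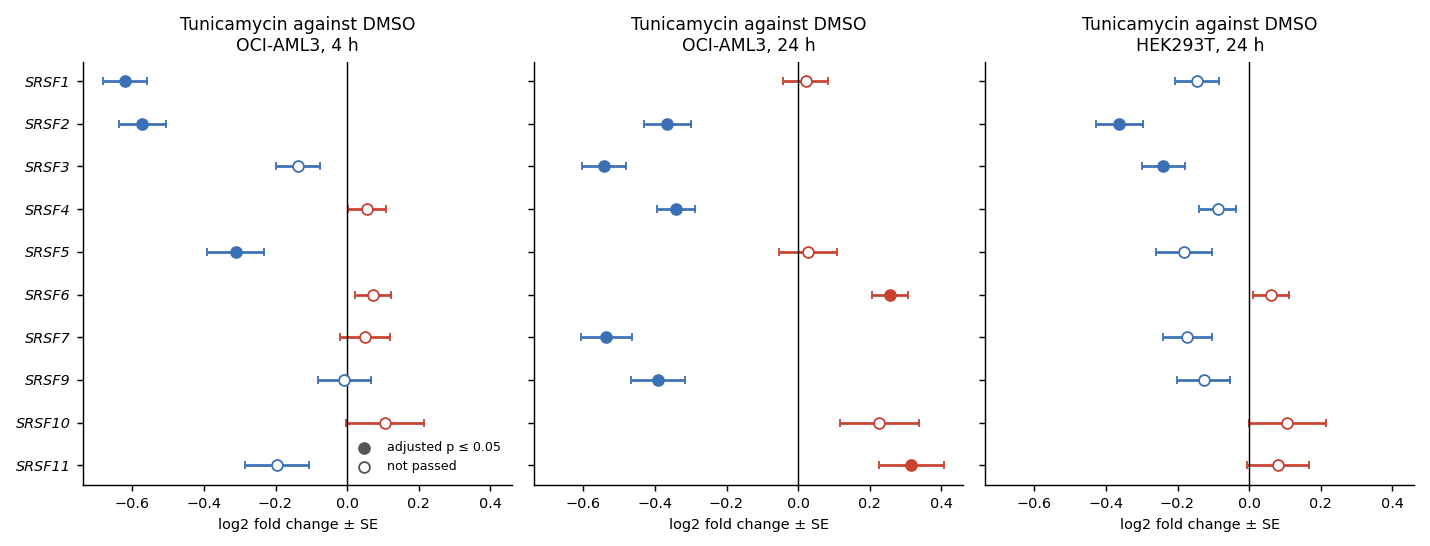
Log2 fold change of tunicamycin against DMSO (horizontal axis, ± SE) for each SR family gene (vertical axis) in OCI-AML3 at 4 h and 24 h and in HEK293T at 24 h, from 3 libraries per group. Filled points passed an adjusted p of 0.05 and open points did not. Filled points are SRSF1, SRSF2 and SRSF5 at 4 h, 7 members at 24 h in OCI-AML3, and SRSF2 and SRSF3 in HEK293T.

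The lines themselves differed in the level of every member. In DMSO at 24 h 9 members were higher in HEK293T and 1, SRSF9, was lower, where 82.7% of all genes were called, 40.5% higher and 42.2% lower. The libraries of the lines did not overlap for any member, nor for 85% of all genes. In 4 members the log2 fold change was above 1, as was the size of the change in 45.2% of all genes. This count depends on the settings, since by library size without TMM SRSF4 (1.02) and SRSF6 (1.33) were also above 1, and with the filter of 1 count in total SRSF1 (0.96) and SRSF5 (0.98) were below it. SRSF6, at 0.98, reached 1.03 with 1 library left out. The 4 were SRSF11 at 1.96 ± 0.09 (SE, adjusted p = 3.4e-15), SRSF10 at 1.57 ± 0.11 (SE, adjusted p = 8.4e-12), SRSF5 at 1.16 ± 0.08 (SE, adjusted p = 5.7e-12) and SRSF1 at 1.14 ± 0.06 (SE, adjusted p = 6.8e-14). SRSF11 stood at 459.5, 451 and 484 CPM in HEK293T and at 117, 126 and 116 CPM in OCI-AML3, 3.89-fold higher. The smallest rise was that of SRSF3, 0.42 ± 0.06 (SE, adjusted p = 1.1e-06). SRSF9 stood at 297, 296 and 291 CPM in HEK293T and at 352, 339 and 394 CPM in OCI-AML3, a log2 fold change of -0.29 ± 0.07 (SE, adjusted p = 0.00093). Its direction depends on the scaling. By library size without TMM the median of all genes moved by 0.34 and SRSF9 was at 0.05 (adjusted p = 0.45), while the other 9 members were higher under both scalings.

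Over the 7 groups, the highest mean level was in HEK293T with DMSO for 6 members. Of these, SRSF2, SRSF3 and SRSF7 overlapped there with untreated OCI-AML3. The highest mean was in HEK293T with tunicamycin for SRSF6, SRSF10 and SRSF11, and in untreated OCI-AML3 for SRSF9. The top groups of SRSF9, SRSF10 and SRSF11 also overlapped with the next in order. The lowest mean was in OCI-AML3 with tunicamycin at 24 h for SRSF2, SRSF3, SRSF4 and SRSF7. It was in OCI-AML3 with DMSO at 24 h for SRSF6, SRSF10 and SRSF11, and with tunicamycin at 4 h for SRSF1 and SRSF5. For SRSF9 it was in HEK293T with tunicamycin. The lowest groups of SRSF9 and SRSF10 overlapped with OCI-AML3 with tunicamycin at 24 h. For SRSF6 each neighbouring pair of groups in this order was separated, from 324 ± 3.13 CPM in HEK293T with tunicamycin to 157 ± 3.45 CPM in OCI-AML3 with DMSO at 24 h (mean ± SD, n = 3). For SRSF1 the order ran from 784 ± 27.2 CPM in HEK293T with DMSO through 709.6 ± 4.51 with tunicamycin, 589.9 ± 22.4 in untreated OCI-AML3 and 524 ± 13.8 after 4 h of DMSO. The 3 lowest groups of SRSF1, 361 ± 23.8, 356 ± 23.6 and 341 ± 15.8 CPM, overlapped with their neighbours. For SRSF5 the OCI-AML3 groups lay between 212 ± 12.7 and 171 ± 8.90 CPM and each overlapped with the next in order. The spread was widest for SRSF10, whose SD reached 17.3% of the mean in OCI-AML3 with tunicamycin at 24 h, where replicate 3 was at 144 CPM and the others at 107 and 109.9 CPM.

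The sum of the 10 genes followed the time and the treatment in OCI-AML3. It was 3506 ± 115 CPM in untreated cells, 3215 ± 55.7 CPM after 4 h of DMSO and 2779.7 ± 15.4 CPM after 4 h of tunicamycin (mean ± SD, n = 3). After 24 h it was 2554 ± 128 CPM in DMSO and 2209 ± 74.7 CPM in tunicamycin. In HEK293T it was 4388 ± 56.2 CPM in DMSO and 4022 ± 48.5 CPM in tunicamycin. In each of the 3 pairs the libraries with tunicamycin lay below those with DMSO after TMM scaling. By library size without TMM the libraries of OCI-AML3 at 24 h overlapped, at 1997 to 2301 CPM with tunicamycin and 2241 to 2407 CPM with DMSO, and the other pairs stayed apart. SRSF1 made up 16.3% of the sum after 4 h of DMSO and 12.3% after 4 h of tunicamycin. SRSF7 made up 9.06% after 24 h of DMSO and 7.23% after 24 h of tunicamycin, and SRSF11 made up 6.72% in OCI-AML3 and 12.2% in HEK293T with tunicamycin.

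**Figure D4:**
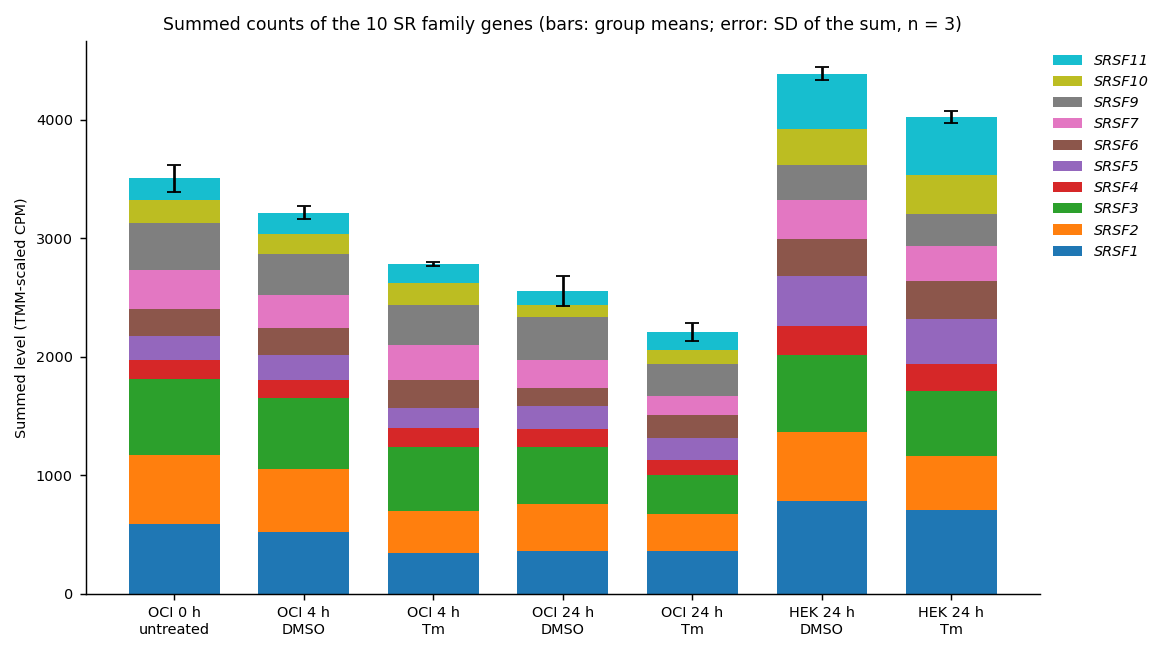
Summed level of the 10 SR family genes (TMM-scaled CPM, vertical axis from 0) in the 7 groups (horizontal axis; Tm, tunicamycin), with the group mean of each gene as a coloured segment and the SD of the sum over 3 libraries as the error bar. The sum is lower with tunicamycin than with DMSO in each pair and higher in HEK293T than in OCI-AML3.

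Over the 15 OCI-AML3 libraries, the likeness of the members was described by Pearson's correlation of log2 CPM across libraries. The libraries share 5 groups, so a correlation reflects group means as well as replicates, and no p is given. SRSF3 and SRSF7 were most like each other (0.98), SRSF6 and SRSF10 likewise (0.93), and SRSF1 and SRSF2 likewise (0.92). SRSF11 was most like SRSF10 (0.89), SRSF4 and SRSF9 most like SRSF3 (0.88 and 0.84), and SRSF5 most like SRSF1, at 0.68 the loosest of these. In each case tested genes outside the family were at least as alike as the closest member, so that likeness at this level is not confined to the family. The share of all tested genes at least as alike as the closest member was 4.27% for SRSF9, 2.93% for SRSF4 and 1.64% for SRSF5, and 0.0785 to 0.657% for the other 7. These shares count the gene itself and its closest member. SRSF9 and SRSF11 had a correlation of -0.01 and SRSF4 and SRSF5 one of -0.10. Among all tested genes the most alike were CEMIP2 for SRSF1 (0.97), G3BP2 for SRSF2 (0.98), CCT5 for SRSF3 (0.99), ANO4 for SRSF4 (0.98) and MT-CO2 for SRSF5 (0.89). They were SDAD1 for SRSF6 (0.97), IFIT1 for SRSF7 (0.99), DTYMK for SRSF9 (0.97), TFAM for SRSF10 (0.98) and SMAD5 for SRSF11 (0.97).

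The annotation of the members bears on what a gene count holds. Each of the 10 has at least 1 transcript annotated as an NMD target, as have 48.5% of the tested coding genes, and 9 have a transcript with a retained intron, against 60.9%. The median number of annotated transcripts is 11.5 for the members and 8 for the tested coding genes. A gene count sums these forms, and changes between forms were not analysed here. Some counts are less certain because genes overlap. SRSF1 had counts that were not whole in 21 of 21 libraries, and on its strand lies ENSG00000266086, at 0.818 to 7.10 CPM in OCI-AML3 and 20.1 to 30.9 CPM in HEK293T. SRSF2 shares exons with MFSD11 on the opposite strand, and whether counting used the strand is not given in the sources used here. MFSD11 stood at 148 CPM after 4 h of DMSO and at 118 CPM after tunicamycin, a log2 fold change of -0.33 (adjusted p = 0.00047). SRSF9 shares exons with GATC and NRAV, with log2 values at 24 h of tunicamycin of -0.19 (adjusted p = 0.1) and -0.17 (adjusted p = 0.34). The opposite-strand ENSG00000279069 at SRSF1 reached at most 51.8 CPM in a library, and its log2 change at 4 h was -0.62 (adjusted p = 8.8e-05). Of 13 SRSF pseudogenes in the table none exceeded 0.274 CPM in any library.

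Among close relatives, SRSF8, a retrogene relative of SRSF2, rose in both lines with 24 h of tunicamycin, at 0.33 (adjusted p = 0.00058) in OCI-AML3 and 0.29 (adjusted p = 0.0021) in HEK293T. SRSF12 was at 0 to 0.173 CPM in OCI-AML3 and at 11.7 CPM or more in HEK293T, and was not tested. TRA2A and TRA2B, SR-like splicing activators, had no call with tunicamycin and fell between 4 h and 24 h of DMSO, at -0.62 (adjusted p = 9.6e-08) and -0.72 (adjusted p = 5.3e-09). Of 32 SR-related proteins, 4 rose and 8 fell with tunicamycin at 4 h, 6 rose and 10 fell at 24 h, and 0 rose and 9 fell in HEK293T. Of all genes tested 18.5% rose and 18.9% fell at 4 h, 23.5% and 27.7% at 24 h, and 12.6% and 13.1% in HEK293T. Between 4 h and 24 h of DMSO 0 of the 32 rose and 18 fell, against 21% and 21.6% of all genes. Examples at 4 h were PNN, a speckle protein, at -0.69 (adjusted p = 8.2e-05), SRRM2, a scaffold of nuclear speckles, at -0.47 (adjusted p = 0.0037), and ZRSR2, a factor of the minor spliceosome, at 0.74 (adjusted p = 5.4e-05). U2AF2, which binds the polypyrimidine tract, fell at 24 h in both lines, at -0.53 (adjusted p = 4.7e-06) in OCI-AML3 and -0.41 (adjusted p = 0.00023) in HEK293T.

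Of 9 kinases that act on SR proteins, 1 rose and 2 fell with tunicamycin at 4 h, 2 rose and 2 fell at 24 h, and 0 rose and 1 fell in HEK293T, where 37.5%, 51.1% and 25.7% of all genes were called. At 4 h the level of CLK1, a nuclear kinase of SR proteins, was 59.7 ± 5.68 CPM with tunicamycin against 44.4 ± 12.1 CPM with DMSO (mean ± SD, n = 3). Its log2 fold changes did not pass at 4 h (0.42 (adjusted p = 0.056)), at 24 h (0.34 (adjusted p = 0.097)) or in HEK293T (0.38 (adjusted p = 0.09)). It rose between 4 h and 24 h of DMSO, at 0.48 (adjusted p = 0.027). SRPK1, the cytoplasmic kinase that prepares SR proteins for import, fell at 4 h (-0.23 (adjusted p = 0.0031)) and at 24 h (-0.27 (adjusted p = 0.00054)). DYRK1A rose at both times, at 0.43 (adjusted p = 8.6e-05) and 0.31 (adjusted p = 0.0017).

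Of 9 phosphatases and import or export partners of SR proteins, 0 rose and 1 fell at 4 h, 1 rose and 7 fell at 24 h, and 0 rose and 4 fell in HEK293T, beside the same 37.5%, 51.1% and 25.7% of all genes called (18.9%, 27.7% and 13.1% lower). ALYREF, an adaptor of mRNA export, changed most. Its level was 88.3 ± 13.4 CPM after 24 h of tunicamycin, against 175 ± 16.3 CPM with DMSO, with a log2 fold change of -0.99 ± 0.11 (SE, adjusted p = 1.8e-07). TNPO3, the import receptor of SR proteins, fell in HEK293T (-0.28 (adjusted p = 0.00037)). The heterogeneous nuclear ribonucleoproteins (hnRNPs), which often oppose SR proteins at exons, are another list of splicing regulators. Of 24 hnRNP genes 2 rose and 11 fell at 4 h, 1 rose and 18 fell at 24 h, and 0 rose and 9 fell in HEK293T, beside those same shares of all genes. Their medians were -0.16, -0.25 and -0.15 on the log2 scale, against -0.02, -0.01 and -0.01 over all genes. Of 10 NMD factors 3 rose and 0 fell at 4 h, 1 rose and 3 fell at 24 h, and 1 rose and 3 fell in HEK293T, again where 37.5%, 51.1% and 25.7% of all genes were called. UPF1, the helicase at the centre of NMD, fell at 24 h in OCI-AML3 (-0.42 (adjusted p = 0.00034)) and in HEK293T (-0.29 (adjusted p = 0.013)), and UPF3A rose in each of the 3 comparisons, at 0.36 (adjusted p = 0.0011), 0.37 (adjusted p = 0.00083) and 0.34 (adjusted p = 0.0046).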

How the data were processed

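Polyadenylated RNA of OCI-AML3 and HEK293T cells was measured in 21 libraries. Paired-end reads had been trimmed with seqtk, placed on GRCh38 with STAR and assigned to Ensembl genes with RSEM, and the authors deposited the expected counts as RSEM gave them, without scaling or filtering. RSEM divides a read that fits several genes between them, and 3.54 to 4.22% of the values in a library were not whole. The values were rounded to whole numbers. The libraries held 13838480 to 19961819 counts, and the limit that a count of 0 sets (3 counts) was 0.137 to 0.231 CPM, for counting error alone. No pair of libraries was identical (0 pairs).

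A gene entered the test when it reached 1 CPM in 8 or more libraries. TMM-scaled counts were fitted in edgeR 4.0.16 (R 4.3.3) by quasi-likelihood, with 7 group means and no block. The SE of a log2 fold change was derived from this test. It is the size of the change divided by the square root of the test's F statistic. Each of 8 comparisons was adjusted over all 14012 genes by the Benjamini-Hochberg method. Correlations used log2 CPM with a prior count of 2. The authors' own test was limma voom. Positions, lengths and transcript classes came from GENCODE release 44, which covers 99.7% of the tested genes, and promoter sequences from RefSeq. The authors counted with an Ensembl annotation, whose transcripts and lengths may differ from these.

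Other tests tried were limma voom (limma 3.58.1) and the Wald test of DESeq2 1.42.0. Within edgeR the alternatives were the size factors of DESeq2, no TMM factor, a looser filter (1 count in total, or 1 CPM in 3 libraries), the compared groups fitted alone, a replicate block, and the removal of 1 library at a time for all 21. The length of all annotated exons was added after the data had been seen. The tests were run on simulated data with changed genes before use. All 10 members are named. Of other lists, written from general knowledge, those named are at most the 3 called genes farthest from 0 in each direction of a comparison, plus CLK1, HSPA5 and DDIT3, and for each member the tested gene of highest correlation. MFSD11, GATC, NRAV and the unnamed gene models were added because they overlap members. MPO, EPCAM, PAX2 and SRSF12 were named outside this rule, after their values had been seen. The members and lists were chosen with earlier results of these data known. Splicing events and isoforms were not analysed here.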

Additional observations from a re-analysis of the deposited data

Results flagged for a closer look

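The effect of tunicamycin on 8 members differed between 24 h and 4 h in OCI-AML3, by the interaction term of edgeR's test at an adjusted p of at most 0.05, as did 35.3% of all genes. The 24 h log2 fold change minus the 4 h log2 fold change was 0.64 (adjusted p = 1e-05) for SRSF1, 0.51 (adjusted p = 0.0035) for SRSF11, 0.34 (adjusted p = 0.024) for SRSF5 and 0.18 (adjusted p = 0.048) for SRSF6. It was -0.59 (adjusted p = 9.6e-05) for SRSF7, -0.41 (adjusted p = 0.00086) for SRSF3, -0.40 (adjusted p = 0.00031) for SRSF4 and -0.38 (adjusted p = 0.0069) for SRSF9. The SRSF6 call was lost in 12 of 21 fits with 1 library left out and in 3 of 8 other alternatives. The SRSF5 call was lost in 3 of the 21 (adjusted p up to 0.063). The SRSF9 call was lost with the compared groups fitted alone (adjusted p = 0.059). Each of these differences rests on 12 libraries, of which 6 are DMSO controls that also enter the comparison of DMSO at 24 h with DMSO at 4 h. For SRSF1 the mean went from 524 CPM at 4 h to 356 CPM at 24 h in DMSO, and from 341 to 361 CPM with tunicamycin.

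The effect at 24 h differed between HEK293T and OCI-AML3 in 4 members by the same kind of term, and in 26.8% of all genes. The HEK293T log2 fold change minus that of OCI-AML3 was 0.36 (adjusted p = 0.0089) for SRSF7, 0.30 (adjusted p = 0.011) for SRSF3, 0.25 (adjusted p = 0.015) for SRSF4 and -0.20 (adjusted p = 0.045) for SRSF6. Each of the 4 calls was lost without single libraries, and 1 member passed with the filter of 1 count in total. In each of the 4, the effect in HEK293T was the nearer to 0. A difference in effect between the lines cannot be told apart from their different media. The 8 UPR check genes did not differ between the lines in 1 direction. The effect was larger in HEK293T for 3, HERPUD1 by 1.34 (adjusted p = 1.6e-09) on the log2 scale, PPP1R15A by 0.88 (adjusted p = 9.7e-06) and TRIB3 by 0.55 (adjusted p = 0.00093). It was smaller for 2, HSPA5 at -0.82 (adjusted p = 1.5e-07) and DDIT3 at -0.64 (adjusted p = 0.0059), and 3 did not pass. The part of these differences in those of the members was not tested.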

How the results depend on the processing

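Of 2320 alternative values for the fold changes of the members, 2176 kept their direction and their side of the threshold, 52 lost a call, 44 gained one and 48 changed sign. Of called values 1 changed sign, SRSF9 in HEK293T against OCI-AML3, at 0.049 (adjusted p = 0.45) with library sizes without TMM. The other sign changes were of values near 0 that passed neither there nor with the main settings. For SRSF2 in the difference between the lines they were -0.036 with DESeq2, -0.035 with its size factors, -0.11 without TMM, -0.039 with the filter of 1 CPM in 3 libraries and -0.037 with the compared groups alone. SRSF4 in DMSO at 24 h against 4 h was at 0.024 with DESeq2 and with its size factors and at 0.0036 with the compared groups alone, and SRSF9 was at -0.049 without TMM. SRSF11 in DMSO at 4 h against untreated cells was at 0.011 without TMM and at 0.0033 with the compared groups alone, which also gave 0.0057 for SRSF9 with tunicamycin at 4 h. With 1 library left out the sign changed for SRSF9 with tunicamycin at 4 h (-0.067 to 0.092), SRSF4 in DMSO at 24 h against 4 h (-0.022 to 0.018), SRSF5 (-0.00070 to 0.13) and SRSF11 (-0.087 to 0.092) in DMSO at 4 h against untreated cells, SRSF10 in the difference between times (-0.0060 to 0.25) and SRSF2 in that between lines (-0.12 to 0.018). In HEK293T with tunicamycin 4 members passed with DESeq2 and 8 with the compared groups alone, where 3771 and 5783 of the 14012 genes did, against 3606 with the main settings. For the difference between the lines 1 member passed with the filter of 1 count in total, as did 3706 of 31899 genes. The causes were not tested. With each library left out in turn, 3 to 4 members passed for tunicamycin at 4 h, 7 to 8 at 24 h and 2 to 3 in HEK293T. The ranges were 7 to 8 for DMSO at 24 h against 4 h, 0 to 0 for DMSO at 4 h against untreated cells, 6 to 9 for the difference between times, 2 to 4 for the difference between lines and 10 to 10 for the lines themselves. SRSF2 passed for the difference between times in several alternatives, for example at an adjusted p of 0.0088 without OCI-AML3 DMSO 24 h replicate 3. By library size without TMM the summed level of the family was 3381, 3145 and 2688 CPM in OCI-AML3 untreated, after 4 h of DMSO and after 4 h of tunicamycin. It was 2299.6 and 2106 CPM after 24 h of DMSO and tunicamycin, and 5016 and 4498 CPM in HEK293T. That scaling moved the median of all genes by -0.12 in DMSO at 24 h against 4 h, by -0.11 in the difference between lines and by 0.34 between the lines.

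Labels number the replicates 1 to 3 in each group. The deviations of same-numbered libraries correlated at -0.14 to 0.20 over pairs of groups, some of them across times or lines. Each HEK293T DMSO library was most like the tunicamycin library of its number (0.04 to 0.12). In OCI-AML3 this held at 4 h for replicates 1 and 3 and at 24 h for none. The numbers were not taken to pair the samples in the main test. With a replicate block 3, 7, 2, 7 and 0 members passed in the order of the ranges above, then 7 for the difference between times, 3 for that between lines and 10 between the lines. The calls lost under the block were those of SRSF6 (adjusted p = 0.058 between times and 0.055 between lines). Depth was not limiting for the members, whose lowest level in any library was 96.9 CPM against a limit for a count of 0 of at most 0.231 CPM.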
